A study of Mus musculus with 24 samples.

Results

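Fabp7 and 7 other genes that mark astrocytes, Gfap, Aqp4, Slc1a2, Slc1a3, Gja1, Gjb6 and Aldh1l1, were followed over the day in the mediobasal hypothalamus of sleep-restricted and undisturbed mice. Each was read from the probe set that the array annotation assigned to that symbol and to no other, and each of the 8 had 1 such probe set. They were 8 of 19938 genes with a probe set of their own, and all 8 were among the 11963 genes that passed the filter on low levels. Fabp7 was chosen by its measured difference between the conditions at ZT1, the first time of day, and the other 7 as known astrocyte genes, so the difference between conditions at that time is described for every gene and tested for none.

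Astrocytes take up glutamate and potassium from around synapses, pass metabolites through gap junctions and surround blood vessels with endfeet rich in water channels. Fabp7, the brain fatty acid binding protein, carries long-chain fatty acids inside astrocytes and radial glia, and its transcript is known to vary over the day across the mouse brain. In the mediobasal hypothalamus, which holds the arcuate nucleus, astrocytes lie beside tanycytes and ependymal cells that line the ventricle and that also express several of these genes.

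The question was how restricting sleep changes the daily course of transcripts in this tissue. Mice labelled with the strain C57BL76J were under timed sleep restriction (TSR) or served as controls (CON), and RNA was taken at 1, 7, 13 and 19 h of zeitgeber time (ZT, counted from lights on). TSR mice were held awake by gentle handling between ZT0 and ZT6 for 5 days, slept freely for 2 days and were restricted again for 5 days. CON mice were left alone. Each of the 8 groups had 3 arrays, and 3 mice were used for each, while the sources used here give neither the age of the mice nor the day of collection. Levels are log2 units, and a difference is TSR minus CON. P-values come from limma, adjusted over all genes tested, with 0.05 as the threshold, and reflect the variation from array to array, which may be partly technical, as no label ties an array to a single mouse. In pieces of tissue, fewer cells of a type and less RNA per cell cannot be told apart.

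Of the genes of arcuate and ventromedial neurons and of tanycytes looked up in the 20 typical arrays described next, Npy averaged 7.04, Ghrh 6.25 and Kiss1 5.99, while Pomc, Nr5a1 and Rax lay under the filter of 5.84 and Agrp had no probe set of its own. A set of 4 arrays stood apart from the rest. They were TSR ZT1 replicate 3, TSR ZT13 replicate 2 and CON ZT19 replicates 2 and 3, called narrow arrays here. Their interquartile ranges were 2.12 to 2.25, against 2.96 to 3.29 in the other 20, so a limit of 2.5 separated them with 2.25 the nearest value below it and 2.96 the nearest above. Their median rank correlation with other arrays was 0.836 to 0.881, against 0.976 to 0.986. The median residual SD over genes was 0.361 with all 24 arrays and 0.111 in the 20 typical ones. The tests of the 8 genes between conditions are therefore given for the 24 arrays and for the 20, and results given for 1 set only name it. In the 20, CON ZT19 had 1 array, whose spread was taken to be that of the other groups, and TSR ZT1 and TSR ZT13 had 2 each.

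The 250 bases before the start of Fabp7 and of Gfap are shown because these 2 genes had the widest range over ZT7, ZT13 and ZT19 in CON mice among the 8 in the 20 typical arrays. With all 24, Gfap (2.01) had the widest, and Aqp4 (1.64), Slc1a3, Gja1, Slc1a2 and Aldh1l1 also exceeded Fabp7 (1.05). The sequences are from RefSeq (build GRCm38.p6), Fabp7 from chr10:57784673-57784922 on the plus strand and Gfap from chr11:102897201-102897450 on the minus strand, each just upstream of the gene. Capitals mark AGGTCA read on either strand, the half-site bound by the ROR and REV-ERB receptors of the circadian clock.
Fabp7: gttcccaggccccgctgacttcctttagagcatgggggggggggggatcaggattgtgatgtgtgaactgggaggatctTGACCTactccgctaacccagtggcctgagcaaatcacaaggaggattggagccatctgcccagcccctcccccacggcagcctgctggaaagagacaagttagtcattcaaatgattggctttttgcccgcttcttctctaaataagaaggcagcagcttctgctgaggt
Gfap: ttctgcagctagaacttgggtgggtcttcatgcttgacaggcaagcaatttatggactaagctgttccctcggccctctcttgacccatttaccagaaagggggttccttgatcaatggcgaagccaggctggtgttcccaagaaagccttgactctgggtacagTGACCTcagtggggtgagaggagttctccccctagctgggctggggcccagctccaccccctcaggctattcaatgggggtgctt
Counted from the gene start, the match began at -171 in Fabp7 and at -85 in Gfap. Among the 7 of 8 genes with a RefSeq entry, Aldh1l1 held one too, and its time of day did not pass the test in either condition. The same letters were in 14.0% of 32536 upstream windows of this length. The E-box CACGTG, present in 6.04% of windows, and the D-box TTATGTAA, read on both strands and present in 0.811%, were in none of the 7.

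Fabp7 had its highest level in undisturbed mice early in the light phase, and this high level was not seen in sleep-restricted mice. At ZT1 it measured 6.50, 6.33 and 6.05 in TSR mice, the last on the narrow array, and 7.47, 7.64 and 7.57 in CON mice. All TSR arrays lay below all CON arrays, as they did for 12.7% of genes in the 24 arrays and 19.8% in the 20. The difference was -1.27 ± 0.23 (SE) with 24 arrays and -1.14 ± 0.11 with 20, or 0.453 times the CON level. These are the values that led to the choice of the gene and they carry no test.

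At ZT7, Fabp7 measured 6.71, 6.98 and 6.76 in TSR mice and 7.26, 7.23 and 6.96 in CON mice. The groups touched, since 1 TSR array was slightly above the lowest CON array. No narrow array belonged to this time, so the difference was -0.33 in both sets. With the wide spread of the 24 arrays it missed the threshold (SE 0.227, limma adjusted p = 1). In the 20 arrays it fell (SE 0.095, limma adjusted p = 0.0136). That call was lost without TSR replicate 1 (-0.28, limma adjusted p = 0.0699), without TSR replicate 3 (-0.30, limma adjusted p = 0.0544) and without CON replicate 1 (-0.28, limma adjusted p = 0.0682).

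At ZT13 the order of the conditions turned. Fabp7 measured 6.47 and 6.54 on the typical TSR arrays and 5.50 on the narrow one, and 6.02, 6.19 and 6.09 in CON mice. Both typical TSR arrays lay above all CON arrays, while the narrow one lay below them. The difference was 0.07 ± 0.23 in the 24 arrays (limma adjusted p = 0.914). In the 20 it rose by 0.41 ± 0.11, or 1.32-fold (limma adjusted p = 0.00421), and the call held when any 1 of the 20 arrays was left out, with 0.0454 as its highest adjusted p. When all 24 arrays were quantile normalized again, the difference was -0.12.

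At ZT19, Fabp7 measured 6.49, 6.50 and 6.35 in TSR mice, and in CON mice 6.61 on the typical array and 5.74 and 5.98 on the narrow ones. The sign of the difference depended on the narrow arrays. It was 0.34 ± 0.23 in the 24 arrays (limma adjusted p = 0.188) and -0.16 ± 0.13 in the 20 (limma adjusted p = 0.389), and neither passed.

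**Figure D1:**
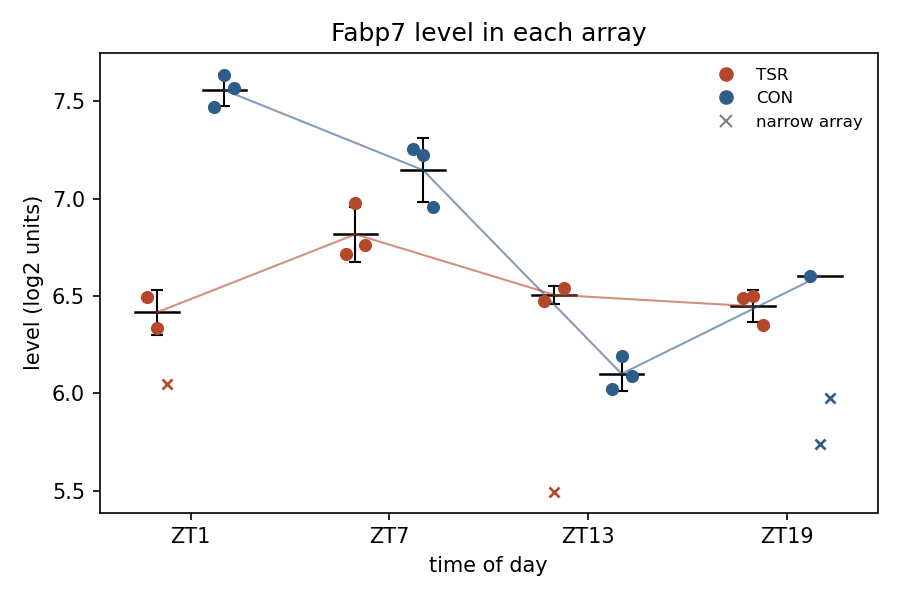
Fabp7 level (log2 units) on each array by time of day, TSR left of CON at each time; circles are typical arrays, crosses narrow arrays, bars the mean ± SD of the typical arrays, and lines join those means. CON means run between 7.56 at ZT1 and 6.10 at ZT13, while TSR means stay between 6.42 and 6.82.

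Over the 3 times that the choice of the gene did not use, Fabp7 varied with time of day in both conditions in the 20 arrays, with the wider range in CON. In TSR mice the means were 6.82 ± 0.14 at ZT7 (SD, n = 3), 6.51 ± 0.05 at ZT13 (n = 2) and 6.45 ± 0.08 at ZT19 (n = 3). In CON mice they were 7.15 ± 0.17 at ZT7 (n = 3), 6.10 ± 0.09 at ZT13 (n = 3) and 6.61 at ZT19 (n = 1). The range was 0.37 in TSR (limma F test, adjusted p = 0.0262) and 1.05 in CON (limma F test, adjusted p = 2.4e-06), a range wider than that of 88.3% of genes in TSR and of 99.7% in CON.

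The difference between conditions itself changed among ZT7, ZT13 and ZT19 in the 20 arrays, spanning 0.74 (limma F test, adjusted p = 0.00594). With all 24 arrays the change among times did not pass (0.67, limma adjusted p = 0.189). There the time of day of Fabp7 passed in CON (limma adjusted p = 0.0465), where it was the only one of the 8 genes to do so, and not in TSR (0.65, limma adjusted p = 0.856). Before adjustment 7 of the 8 genes were under 0.05 in CON. None of the 8 genes passed in CON in 20 of the 24 fits that left out 1 of the 24 arrays, while the Fabp7 call held in all 19 such fits to the 20 arrays. Those 19 fits all kept the lone CON ZT19 array. The TSR call of the 20 arrays was lost without ZT7 replicate 2 (0.29, limma adjusted p = 0.151), ZT7 replicate 3 (0.40, limma adjusted p = 0.0563) or ZT19 replicate 3 (0.32, limma adjusted p = 0.0605).

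With all 4 times, a 24-h cosine through the means of the 20 arrays had an amplitude of 0.19 and a peak at ZT 7.91 for Fabp7 in TSR, and an amplitude of 0.78 and a peak at ZT 2.36 in CON. Through the means of the 24 arrays the amplitudes were 0.195 in TSR and 0.895 in CON, with the peak at ZT 5.76 in TSR and at ZT 3.37 in CON. All of these curves include ZT1, whose values led to the choice of Fabp7. Each rests on 4 means, none was tested, and in the 20 arrays CON ZT19 was 1 array. Ordered by level in the 20 arrays, CON ZT1 came first, followed by CON ZT7, TSR ZT7, CON ZT19, TSR ZT13, TSR ZT19, TSR ZT1 and CON ZT13. The ranges of arrays overlapped between CON ZT7 and TSR ZT7, between TSR ZT13 and TSR ZT19 and between TSR ZT19 and TSR ZT1, and these neighbours were not separated by their spread. Averaged over ZT7, ZT13 and ZT19, the difference was -0.03 ± 0.07 in the 20 arrays (limma adjusted p = 0.74), with a negative difference at ZT7 and a positive one at ZT13.

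Gfap, the intermediate filament protein of astrocytes, was lower in TSR mice at ZT7. It measured 8.26, 8.46 and 8.39 in TSR mice and 9.02, 9.30 and 9.09 in CON mice, with no overlap. The difference of -0.76, or 0.59 times the CON level, did not pass in the 24 arrays (SE 0.517, limma adjusted p = 1) and was a fall in the 20 (SE 0.129, limma adjusted p = 0.000197), where it held whichever array was left out.

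At ZT1 the typical TSR arrays had Gfap at 9.40 and 9.56 and the narrow one at 6.69, against 8.54, 8.75 and 8.39 in CON mice. The difference was therefore -0.01 in the 24 arrays and 0.92 in the 20. At ZT13 Gfap measured 8.27, 8.74 and, on the narrow array, 7.28 in TSR mice, and 8.53, 8.71 and 8.76 in CON mice, with overlap and no call in either set. The values at ZT19 were 8.50, 8.07 and 8.05 in TSR mice, and in CON mice 7.88 on the typical array and 6.76 and 6.74 on the narrow ones. All TSR arrays lay above all CON arrays there, and the difference was 1.08 ± 0.52 in the 24 arrays (limma adjusted p = 0.0761) and 0.33 ± 0.18 in the 20 (limma adjusted p = 0.188).

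The time of day of Gfap passed in CON in the 20 arrays, with a range of 1.25 between ZT7 and ZT19 (limma F test, adjusted p = 0.000466), and did not pass in TSR (0.30, limma adjusted p = 0.293). The difference between conditions changed among the 3 times by 1.09 (limma F test, adjusted p = 0.00795). In the 24 arrays none of these passed (limma adjusted p = 0.923 in TSR, 0.0692 in CON and 0.115 for the change among times). The cosine through all 4 times in the 20 arrays peaked at ZT 1.64 in TSR, with an amplitude of 0.495, and at ZT 7.33 in CON, with an amplitude of 0.63. With the 24 arrays the amplitudes were 0.241 in TSR and 1.004 in CON. Those curves include ZT1 and were not tested. The CON range of Gfap in the 20 arrays ended at ZT19, which had 1 array.

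Aqp4, the water channel of astrocyte endfeet, was higher in TSR mice than in CON mice at ZT13 and ZT19. At ZT13 the TSR values were 9.47 and 9.57, and 7.95 on the narrow array, and the CON values were 8.69, 8.70 and 8.56. At ZT19 Aqp4 measured 9.40, 9.35 and 9.36 in TSR mice, and in CON mice 8.61 on the typical array and 6.89 and 7.05 on the narrow ones. All typical TSR arrays lay above all CON arrays at both times.

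In the 20 arrays Aqp4 rose by 0.87 ± 0.08 at ZT13, or 1.83-fold (limma adjusted p = 1.89e-07), and by 0.76 ± 0.10 at ZT19, or 1.69-fold (limma adjusted p = 8.2e-05). With 24 arrays the ZT13 difference was 0.35 ± 0.51 (limma adjusted p = 0.79) and the ZT19 difference 1.86 ± 0.51 (limma adjusted p = 0.0198). The ZT19 value of the 24 arrays holds 2 narrow CON arrays, and the median over all genes at that time was 0.594, against 0.078 in the 20. Both calls of the 20 arrays held whichever array was left out, the ZT19 one in all 19 fits that kept the lone CON array.

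At ZT7, Aqp4 measured 9.33, 9.37 and 9.27 in TSR mice and 9.21, 9.26 and 9.00 in CON mice, a difference of 0.17 ± 0.07 in the 20 arrays (limma adjusted p = 0.0924). Without CON ZT7 replicate 2 it passed (0.22, limma adjusted p = 0.0384), as it did with the 20 arrays quantile normalized alone (0.181, limma adjusted p = 0.0259). The ZT1 values were 9.59 and 9.51, and 7.26 on the narrow array, in TSR mice, and 9.02, 9.19 and 9.23 in CON mice, a difference of -0.36 in the 24 arrays and 0.41 in the 20, with no test. Averaged over ZT7, ZT13 and ZT19, Aqp4 rose by 0.60 ± 0.05 in the 20 arrays (limma adjusted p = 1.45e-08), against 0.79 ± 0.29 in the 24 (limma adjusted p = 0.116).

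The time of day of Aqp4 did not pass in TSR, with a range of 0.20 (limma F test, adjusted p = 0.193), and passed in CON, with a range of 0.54 (limma F test, adjusted p = 0.000188), in the 20 arrays. There the difference between conditions changed among the 3 times by 0.70 (limma F test, adjusted p = 0.000685). No TSR group mean of Aqp4 in the 20 arrays, 9.32 to 9.55, came as low as any CON group mean, 8.61 to 9.16. The lowest of these CON values, at ZT19, was 1 array. In the 24 arrays the time of day gave 0.37 in TSR and 1.64 in CON, and neither passed (limma adjusted p = 0.868 in TSR and 0.0692 in CON), nor did the change among times (limma adjusted p = 0.12).

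**Figure D2:**
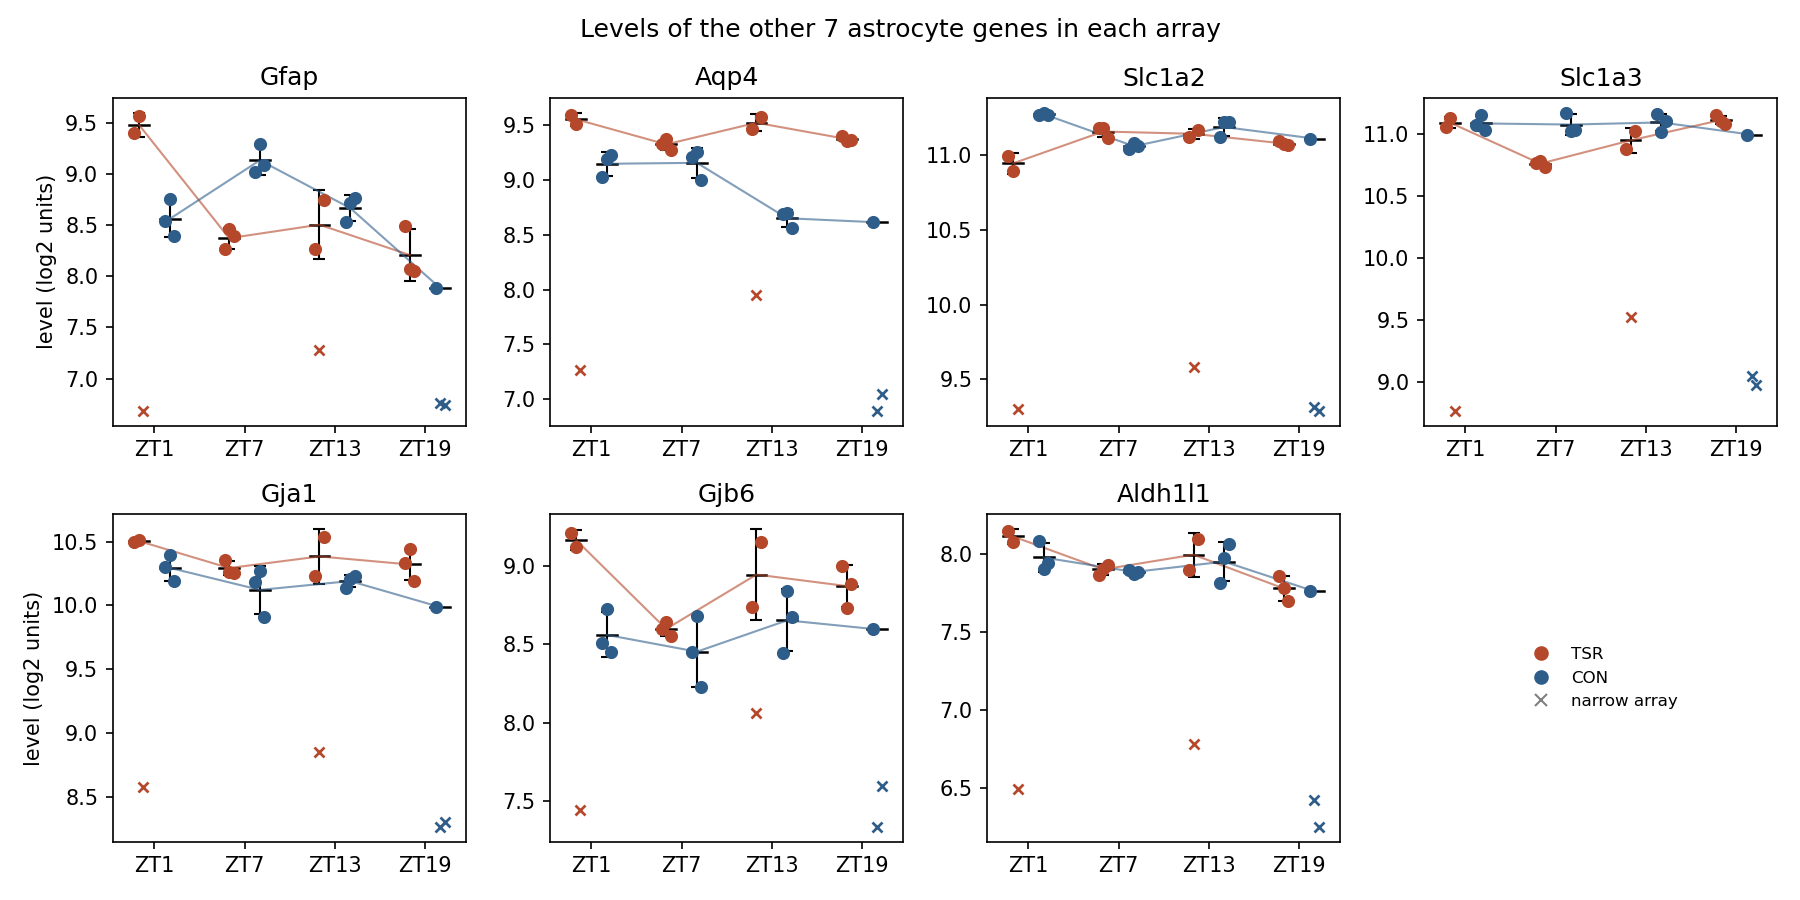
Levels (log2 units) of the other 7 genes on each array by time of day, drawn as for Fabp7, with TSR left of CON. For Gfap the ZT7 TSR arrays (8.26 to 8.46) lie below the CON arrays (9.02 to 9.30), for Aqp4 the typical TSR arrays at ZT13 and ZT19 lie above all CON arrays, and the crosses of narrow arrays sit at the bottom of most panels.

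Slc1a3, one of the astrocyte glutamate transporters, fell at ZT7 in the 20 arrays. It measured 10.77, 10.79 and 10.73 in TSR mice and 11.17, 11.02 and 11.04 in CON mice, with no overlap. The difference was -0.32 with an SE of 0.054 in the 20 arrays (limma adjusted p = 0.000222), where it held whichever array was left out, and an SE of 0.531 in the 24 (limma adjusted p = 1).

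Slc1a3 varied with time of day in TSR mice, with a range of 0.35 in the 20 arrays (limma F test, adjusted p = 0.000881), as the ZT19 mean was 11.11 ± 0.04 (SD, n = 3) and the ZT7 mean 10.76 ± 0.03 (n = 3). In CON mice its range was 0.10 (limma adjusted p = 0.618). The difference between conditions changed among the times by 0.43 (limma F test, adjusted p = 0.0133). Averaged over the 3 times Slc1a3 fell by 0.11 on the log2 scale in the 20 arrays (SE 0.037, limma adjusted p = 0.0135), a call lost without TSR ZT13 replicate 1 (-0.09, limma adjusted p = 0.0555) and when the 20 arrays were quantile normalized alone (-0.011, limma adjusted p = 0.821). At ZT13 its difference of -0.15 (limma adjusted p = 0.0552) passed without CON ZT13 replicate 2 (limma adjusted p = 0.03), CON ZT7 replicate 1 or 2 (0.0435 and 0.0464) or TSR ZT13 replicate 3 (0.0287). The average was 0.17 in the 24 arrays (limma adjusted p = 0.735), so its sign turned with the narrow arrays. Without a test, Slc1a3 at ZT1 differed by -0.769 in the 24 arrays and by 0.006 in the 20.

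Slc1a2, which clears most synaptic glutamate in the forebrain, passed no test in the 20 arrays as deposited. At ZT1 it measured 10.99 and 10.90, and 9.30 on the narrow array, in TSR mice, and 11.27, 11.28 and 11.27 in CON mice, so that all TSR arrays lay below all CON arrays. The difference was -0.88 ± 0.46 in the 24 arrays and -0.33 ± 0.05 in the 20, with no test, and the value of 10.90 was 1 of the deposited cells whose decimal point had been lost and was put back. At ZT7 Slc1a2 measured 11.18, 11.18 and 11.12 in TSR mice and 11.04, 11.08 and 11.06 in CON mice, a separation of 0.10 ± 0.04 in the 20 arrays that did not pass (limma adjusted p = 0.0981). Its differences at ZT13 and ZT19 in the 20 arrays were -0.05 and -0.03. With the 20 arrays quantile normalized alone it passed at ZT7 (0.154, limma adjusted p = 0.00756), at ZT13, where the sign turned (0.162, limma adjusted p = 0.00689), and on average (0.118, limma adjusted p = 0.00155). Slc1a1, the transporter mostly of neurons, rose by 0.27 ± 0.07 on average over the 3 times in the 20 arrays (limma adjusted p = 0.00542). It did not pass in the 24 arrays (0.42, limma adjusted p = 0.225). Of the 5 other members of the family 3 were tested, and Slc1a1 alone passed on average over the 3 times in the 20 arrays, where 55.6% of all genes did.

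Gja1 and Gjb6, which encode the connexins of astrocyte gap junctions, were higher in TSR mice on average. Gja1 means in the 20 arrays were 10.29, 10.38 and 10.32 at ZT7, ZT13 and ZT19 in TSR mice, and 10.12, 10.19 and 9.99 in CON mice. Gjb6 means were 8.60, 8.94 and 8.87 at those times in TSR mice, and 8.45, 8.65 and 8.60 in CON mice. Each TSR mean exceeded its CON mean, though the arrays overlapped at ZT7 for both genes and at ZT13 for Gjb6.

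Averaged over the 3 times in the 20 arrays, Gja1 rose by 0.23 ± 0.06 (limma adjusted p = 0.00298) and Gjb6 by 0.24 ± 0.08 (limma adjusted p = 0.0195). The Gjb6 call was lost without TSR ZT13 replicate 3 (0.17, limma adjusted p = 0.0944). In the 24 arrays the averages were 0.44 ± 0.28 for Gja1 (limma adjusted p = 0.324) and 0.39 ± 0.22 for Gjb6 (limma adjusted p = 0.273). At ZT19, Gja1 was 0.33 higher in the 20 arrays (limma adjusted p = 0.0548), and it passed in 5 of 19 fits that left out 1 array, without CON ZT7 replicate 2 or 3, TSR ZT13 replicate 1 or 3 or TSR ZT19 replicate 3 (limma adjusted p = 0.0223 to 0.0393). It also passed at ZT7 without CON ZT7 replicate 2 (0.25, limma adjusted p = 0.0481) and at ZT13 without TSR ZT13 replicate 1 (0.34, limma adjusted p = 0.024). Gjb6, 0.29 higher at ZT13 (limma adjusted p = 0.0824), passed there without CON ZT13 replicate 2 (0.39, limma adjusted p = 0.0346) or TSR ZT13 replicate 1 (0.50, limma adjusted p = 0.0182), and without that TSR array its time of day passed in TSR (0.55, limma adjusted p = 0.0434). With the 20 arrays quantile normalized alone, Gja1 passed at ZT7, ZT13 and ZT19 (0.206, 0.261 and 0.331, limma adjusted p = 0.0273, 0.00836 and 0.0166) and Gjb6 at ZT13 (0.282, limma adjusted p = 0.0235). Neither gene changed its difference among the 3 times past the threshold (limma adjusted p = 0.68 for Gja1 and 0.777 for Gjb6 in the 20 arrays). At ZT1 Gjb6 measured 9.21 and 9.12, and 7.45 on the narrow array, in TSR mice, and 8.51, 8.72 and 8.45 in CON mice, a difference of 0.03 in the 24 arrays and 0.61 in the 20. Gja1 at ZT1 measured 10.50 and 10.51, and 8.58 on the narrow array, in TSR mice, and 10.30, 10.39 and 10.19 in CON mice, a difference of -0.43 in the 24 arrays and 0.21 in the 20.

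Of 17 other connexin genes, 8 were tested. In the average of the 20 arrays 3 were higher and 1 lower, where 31.9% of all genes were higher, 23.6% lower and 55.6% passed. Gjc3, a connexin of oligodendrocytes in mice, rose by 0.52 ± 0.05 (limma adjusted p = 1.85e-07), Gjd2, the main connexin of neurons, by 0.38 ± 0.08 (limma adjusted p = 0.000641) and Gja6 by 0.35 ± 0.06 (limma adjusted p = 2.93e-05), while Gjd3 fell by 0.35 (SE 0.107, limma adjusted p = 0.0101). These 4 had limma adjusted p in the 24 arrays of 0.0633 to 0.181.

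Aldh1l1, a folate enzyme used to mark astrocytes throughout the brain, showed no call at any tested time in the 20 arrays. Its typical arrays lay between 7.70 and 8.10 in TSR and between 7.76 and 8.06 in CON over ZT7, ZT13 and ZT19. The untested ZT1 difference was -0.405 in the 24 arrays and 0.136 in the 20, so its sign turned with the narrow array. The average difference was 0.03 ± 0.05 (limma adjusted p = 0.684). Its time of day gave 0.22 in TSR (limma adjusted p = 0.167) and 0.19 in CON (limma adjusted p = 0.408).

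Counted together, the 8 genes did not move one way. At ZT7, 0 of 8 passed in the 24 arrays, where 0.46% of all genes did and 0 of the 8 were under 0.05 before adjustment, and 3 fell in the 20, where 13.8% of all genes fell and 26.6% passed in either direction. At ZT13, 0 passed in the 24 arrays, where 0.418% of all genes did (0.0836% higher) and none of the 8 was under 0.05 before adjustment, and 2 rose in the 20, where 23.9% of all genes rose, 21.8% fell and 45.8% passed. The members' median was -0.34 in the 24 arrays at that time, beside -0.18 over all genes, and 0.12 in the 20, beside -0.001 over all genes.

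At ZT19, 6 of 8 were higher in the 24 arrays, where 44.1% of all genes were higher and 55.2% passed. These were Aqp4, Slc1a2, Slc1a3, Gja1, Gjb6 and Aldh1l1, with differences of 0.97 to 1.86 (limma adjusted p = 0.0198 to 0.043). The members' median was 1.13, beside 0.59 over all genes. In the 20 arrays Aqp4 alone passed at ZT19, where 17.4% of all genes rose and 24.4% passed, and the members' median was 0.20, beside 0.08. The count of 6 dropped to 0 without any 1 of TSR ZT19 replicate 1 or 2 or CON ZT19 replicate 2 or 3, was 2 without TSR ZT19 replicate 3, and was 8 without CON ZT19 replicate 1, the typical array.

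For the average of ZT7, ZT13 and ZT19, 0 of 8 passed in the 24 arrays (4.56% of all genes, 2.32% higher and 2.24% lower, with 1 of the 8 under 0.05 before adjustment). In the 20 arrays 3 rose, Aqp4, Gja1 and Gjb6, and Slc1a3 fell, where 31.9% of all genes rose, 23.6% fell and 55.6% passed. The members' median there was 0.016, beside 0.022 over all genes. The Gfap average of -0.20 (limma adjusted p = 0.0617) passed without CON ZT13 replicate 1 (-0.22, limma adjusted p = 0.041), TSR ZT13 replicate 3 (-0.28, limma adjusted p = 0.0116) or TSR ZT19 replicate 1 (-0.25, limma adjusted p = 0.0146), and with the 20 arrays quantile normalized alone (-0.233, limma adjusted p = 0.00819). The change of the difference among the 3 times passed for 0 of 8 in the 24 arrays (0.192% of all genes, and 4 of the 8 under 0.05 before adjustment). In the 20 it passed for 4, Fabp7, Gfap, Aqp4 and Slc1a3, where 13.2% of all genes passed. All 4 held in each of 19 fits that left out 1 array. These fits all kept the lone CON ZT19 array, so they cannot show how the calls depend on it.

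Time of day within TSR passed for 0 of 8 in the 24 arrays (0.134% of all genes, and 1 of the 8 under 0.05 before adjustment) and for 2, Fabp7 and Slc1a3, in the 20 (13.6%). Time of day within CON passed for 1 of 8 in the 24 arrays (0.343% of all genes, and 7 of the 8 under 0.05 before adjustment) and for 3, Fabp7, Gfap and Aqp4, in the 20 (14.2%). The ranges of Gfap and Aqp4 in CON exceeded those of 99.8% and 96.7% of genes, and those of the other 5 apart from Fabp7 exceeded 14.3% to 47.8%.

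Without a test, the arrays of both conditions were separated at ZT1 for 2 of 8 genes in the 24 arrays, both lower in TSR. Of all genes, 15% were separated there, 12.7% lower and 2.34% higher in TSR. In the 20 arrays 6 were, 4 of them higher in TSR, where 52.3% of all genes were separated and 32.6% were higher. At ZT7 they were separated for 4 of 8, Gfap and Slc1a3 lower in TSR and Aqp4 and Slc1a2 higher, where 36.1% of all genes were. At ZT13 it was 0 of 8 in the 24 arrays (27.3%, with 2.77% higher and 24.5% lower in TSR). In the 20 it was 3 there, all higher in TSR (62.4%, with 31.9% higher). At ZT19 it was 5 of 8 in the 24, all higher in TSR (56.8%, with 44.6% higher), and 7 in the 20 (79.5%), the last against 1 CON array.

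**Figure D3:**
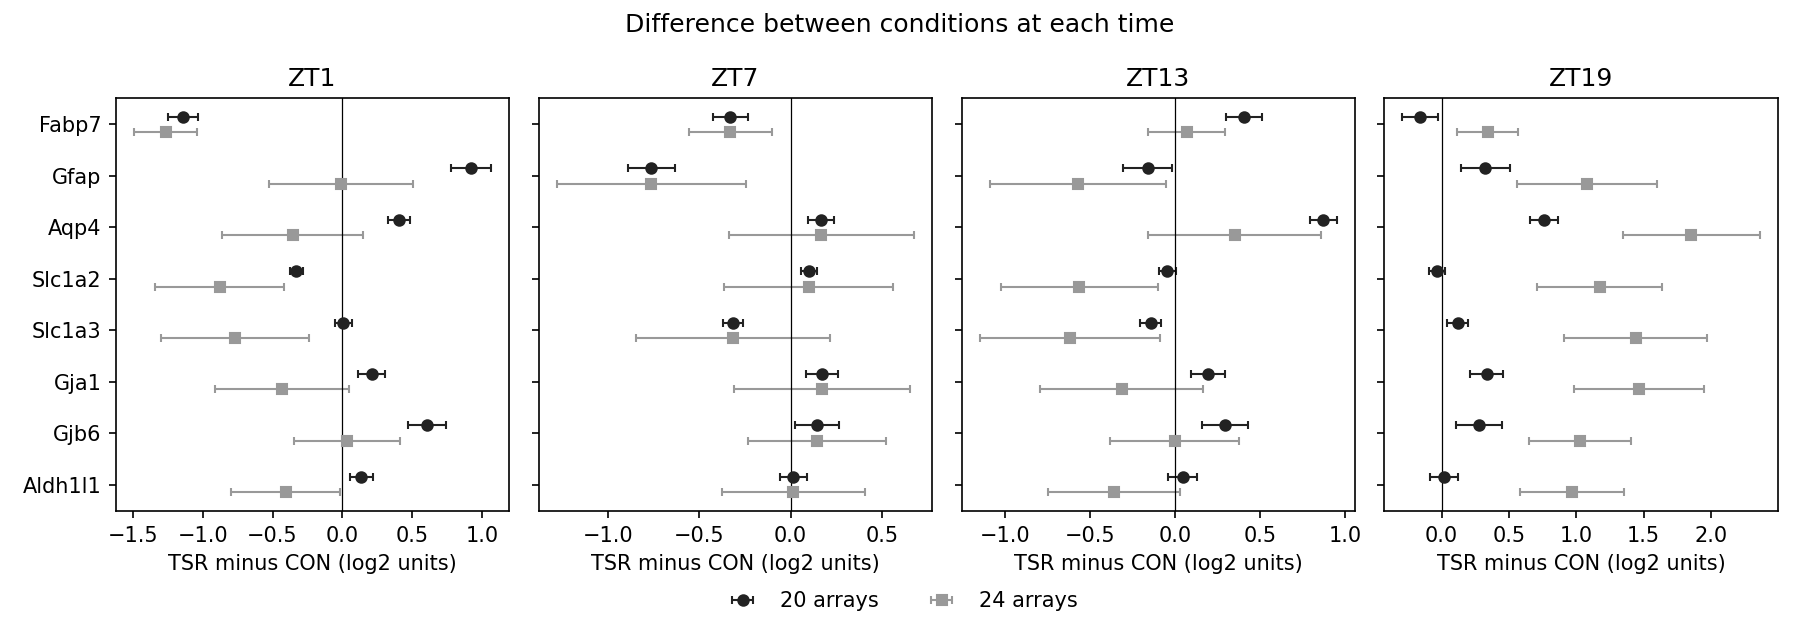
Difference TSR minus CON (log2 units) for the 8 genes at each time, with bars of 1 moderated SE, circles for the 20 typical arrays and squares for all 24; each panel has its own horizontal scale. The ZT7 estimates coincide (Gfap at -0.76 in both), and at ZT19 the squares lie right of the circles (Aqp4 at 1.86 and 0.76).

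Other genes of astrocytes moved in both directions in the 20 arrays. Of 30 further astrocyte markers 28 were tested. At ZT7, 2 were higher and 6 lower, at ZT13, 3 higher and 12 lower, and at ZT19, 3 higher and 2 lower. The shares of all genes that passed at these times in the 20 arrays were 26.6%, 45.8% and 24.4%. By direction, 12.8% of all genes were higher and 13.8% lower at ZT7, and 23.9% were higher and 21.8% lower at ZT13. The calls of this list at those 2 times were mostly falls, while rises and falls were about as frequent among all genes. With 24 arrays, 0 passed at ZT7 and at ZT13 and 16 were higher at ZT19, where 44.1% of all genes were higher and 55.2% passed. Averaged over the 3 times in the 20 arrays, 6 were higher and 12 lower, where 31.9% of all genes were higher, 23.6% lower and 55.6% passed, and 0 of the 28 passed in the 24 arrays. The list's median was -0.06, beside 0.02 over all genes.

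Slco1c1, a thyroid hormone transporter, rose by 0.51 ± 0.07 on average (limma adjusted p = 4.31e-06) and Cldn10, a tight junction protein, by 0.53 ± 0.08 (limma adjusted p = 9.86e-06). Sox9, the transcription factor that marks astrocyte nuclei, fell by 0.47 (SE 0.047, limma adjusted p = 1.47e-07) and Ttyh1, a membrane protein, by 0.43 (SE 0.04, limma adjusted p = 6.03e-08). None of these 4 passed on average in the 24 arrays (limma adjusted p = 0.0607 to 0.699). The mean level of the 28 genes ranged over groups of the 20 arrays between 9.75 and 9.92 in TSR and between 9.72 and 9.90 in CON.

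Transcripts of proteins that hold Aqp4 in the endfoot membrane or work beside it moved in both directions. Of 10 such genes 8 were tested, and 4 were higher and 2 lower on average in the 20 arrays. Of all genes, 31.9% were higher, 23.6% lower and 55.6% passed there. The list's median was 0.079, beside 0.022 over all genes, while 0 of the 8 passed in the 24 arrays. Dmd, the gene of dystrophin, rose by 0.24 ± 0.08 (limma adjusted p = 0.0197) and Dtna, of dystrobrevin, by 0.22 ± 0.07 (limma adjusted p = 0.00937). Kcnj10, the potassium channel of the endfoot, fell by 0.42 (SE 0.058, limma adjusted p = 7.04e-06), with -0.76 at ZT13, where Aqp4 was 0.87 higher, and Hepacam, an adhesion molecule, fell by 0.32 (SE 0.067, limma adjusted p = 0.000605). None of the 4 passed in the 24 arrays (limma adjusted p = 0.291 to 0.681). Kcnj10 and Hepacam were also counted among the further astrocyte markers. Among 3 tested of 10 other aquaporins, Aqp11 rose by 0.19 ± 0.07 (limma adjusted p = 0.0399), against 0.08 in the 24 arrays (limma adjusted p = 0.599).

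Among 12 tested of 30 genes of reactive astrocytes, 4 were higher and 3 lower on average in the 20 arrays, near the 55.6% of all genes that passed. Srgn, a proteoglycan core protein, rose by 0.57 ± 0.08 (limma adjusted p = 4.21e-06), Cp, the ferroxidase ceruloplasmin, by 0.52 ± 0.09 (limma adjusted p = 5.54e-05) and Cd44, the hyaluronan receptor, by 0.48 ± 0.07 (limma adjusted p = 8.78e-06). Fbln5, an elastic fibre protein, fell by 0.35 (SE 0.062, limma adjusted p = 9e-05). Srgn and Cp also passed in the 24 arrays (0.65 and 0.53, limma adjusted p = 0.0493 and 0.0365), and Cd44 and Fbln5 did not (limma adjusted p = 0.0575 and 0.248).

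Of 19 genes of astrocyte metabolism 16 were tested, and 7 were higher and 3 lower on average in the 20 arrays, where 31.9% of all genes were higher, 23.6% lower and 55.6% passed, while 0 passed in the 24. Gfpt1, which opens the hexosamine pathway, rose by 0.44 ± 0.04 (limma adjusted p = 3.25e-08), Abca1, a cholesterol exporter, by 0.32 ± 0.05 (limma adjusted p = 4.73e-05), Pdk4, a kinase that restrains pyruvate oxidation, by 0.31 ± 0.08 (limma adjusted p = 0.0039) and Pygm, a glycogen phosphorylase, by 0.29 ± 0.05 (limma adjusted p = 0.000122). None of these 4 passed in the 24 arrays (limma adjusted p = 0.143 to 0.243). Of 9 relatives of Fabp7 only 2 were tested, and Fabp5, another fatty acid binding protein of the brain, rose by 0.24 ± 0.06 (limma adjusted p = 0.00238), against 0.29 in the 24 arrays (limma adjusted p = 0.065). Of 4 glial intermediate filament genes besides Gfap 2 were tested and neither passed on average.

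Markers of neighbouring cell types moved with these results at some times and not at others, and their part in them was not tested. Of 12 ependymal markers 9 were tested. In the 20 arrays 9 were lower at ZT7 and 8 at ZT13, where 13.8% and 21.8% of all genes were lower. The mean level of these 9 markers at ZT7 was 5.85 to 5.98 in TSR arrays and 6.68 to 6.73 in CON arrays. Gfap, Fabp7 and Slc1a3 were also lower at ZT7, while Fabp7 and Aqp4 were higher at ZT13 (0.41 and 0.87 in the 20 arrays). At ZT19 the mean level of the 9 markers was 6.75 to 6.92 in TSR and 6.63 in CON. In the 24 arrays 2 were lower at ZT7, 2 lower at ZT13 and 5 higher at ZT19, where 0.234%, 0.334% and 44.1% of all genes were. Foxj1, the transcription factor that defines ciliated ependymal cells, averaged 5.54 in TSR and 5.90 in CON at ZT7.

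Transcripts of choroid plexus and plasma proteins, 4 tested of 9, also varied. Their mean level in the 20 arrays was 8.12 to 8.24 in TSR and 6.07 to 6.23 in CON at ZT1, 6.92 to 7.07 in TSR and 7.34 to 7.58 in CON at ZT7, 6.79 to 6.94 in TSR and 6.14 to 6.23 in CON at ZT13, and 7.20 to 7.39 in TSR and 5.65 in CON at ZT19. The sign of this difference was that of Gfap at ZT1, ZT7 and ZT19, and opposite to that of Gfap at ZT13. Ttr, the transthyretin made by the choroid plexus, averaged 6.99 in TSR and 5.59 in CON at ZT1, and Alb, the plasma albumin gene, 9.91 in TSR and 5.74 in CON.

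Oligodendrocyte and myelin markers, 15 tested of 16, had their highest mean level at TSR ZT1 (9.56) and their lowest at CON ZT19 (8.39) in the 20 arrays, and these were also the groups with the highest and lowest Gfap. In the average of the 20 arrays 8 were higher and 0 lower, where 55.6% of all genes passed and 31.9% were higher, and 0 of the 15 passed in the 24. Tanycyte markers, 9 tested of 15, were higher on average for 3 and lower for 1 in the 20 arrays (2 and 0 in the 24), with Gpr50 at 0.71 ± 0.09 (limma adjusted p = 1.49e-06) and Vcan at 0.61 ± 0.07 (limma adjusted p = 9.13e-07). At ZT13, where Aqp4 and Fabp7 were higher, the tanycyte mean level was 7.50 to 7.54 in TSR and 7.27 to 7.41 in CON. That level was 7.31 to 7.36 in TSR and 7.29 to 7.32 in CON at ZT7, where Fabp7 was lower. For ZT19 it was 7.44 to 7.56 in TSR and 7.06 in CON, with a Fabp7 difference of -0.16 in the 20 arrays. Endothelial and mural markers, 10 tested of 14, were higher for 7 on average in the 20 arrays and for 4 in the 24. Neuron markers, 15 tested of 15, were higher for 8 and lower for 5 in the 20 arrays, and higher for 1 and lower for 0 in the 24. Microglia markers, 9 tested of 12, were higher for 3 in the 20 arrays and for 0 in the 24. Oligodendrocyte precursor markers, 9 tested of 10, were higher for 2 and lower for 3 in the 20 arrays, and lower for 1 in the 24. All of these counts stand beside the 31.9% of genes that were higher and 23.6% that were lower on average in the 20 arrays, and the 2.32% higher and 2.24% lower in the 24.

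**Figure D4:**
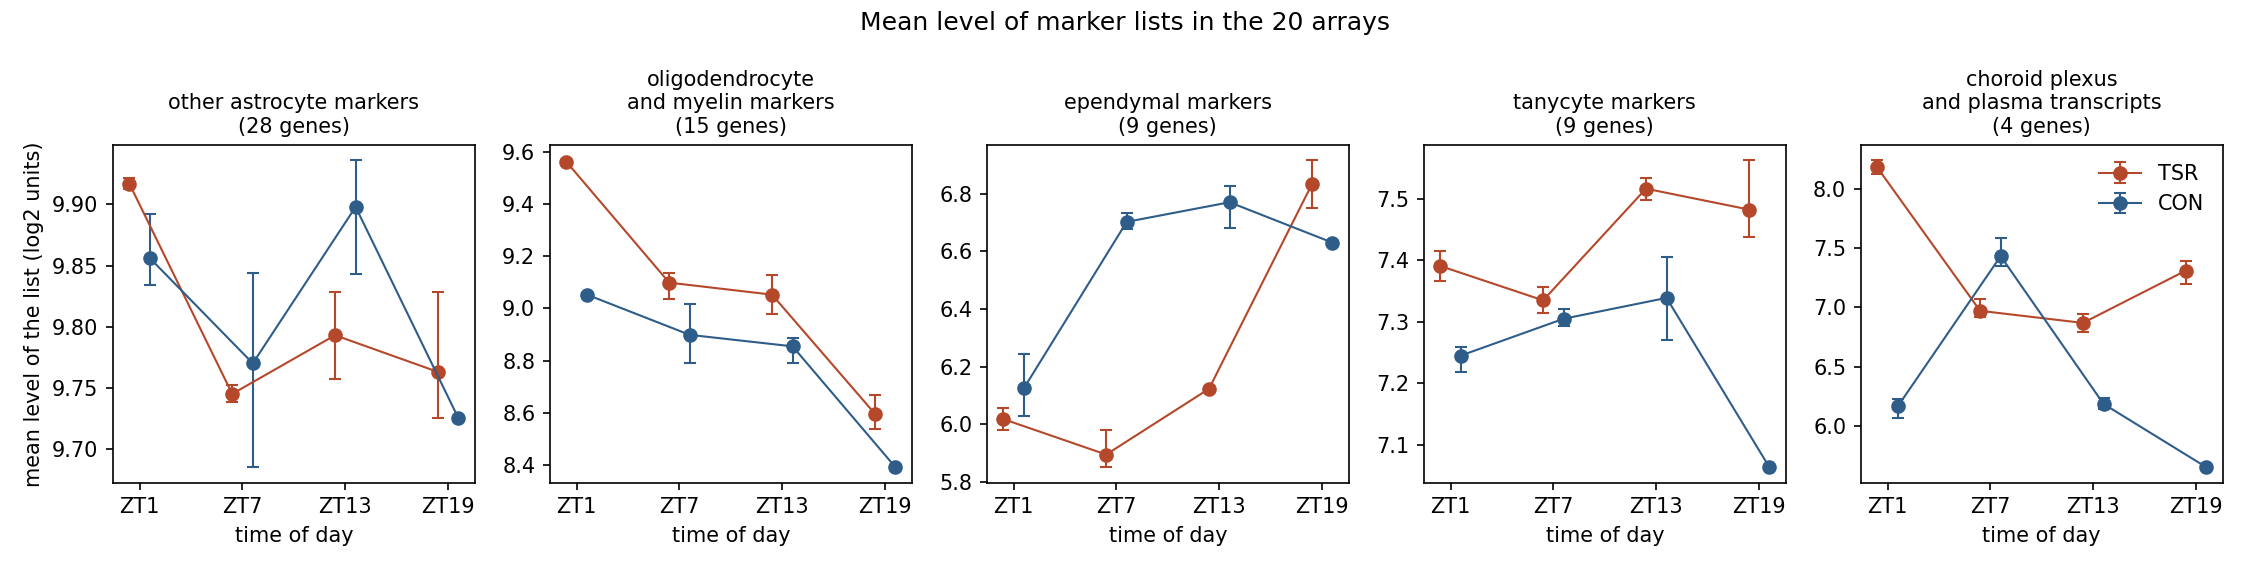
Mean level (log2 units) of the tested genes of 5 marker lists by time of day in the 20 typical arrays, with bars for the lowest and highest array of a group; TSR is left of CON and CON ZT19 is 1 array. The ependymal list is lower in TSR at ZT7 and ZT13, and the choroid plexus and plasma list is higher in TSR at ZT1, ZT13 and ZT19.

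Most core clock genes that passed at ZT7 and ZT13 in the 20 arrays were lower in TSR mice. Of 18 tested of 19, 11 were lower and 1 higher at ZT7, 11 lower and 2 higher at ZT13, and 3 lower and 4 higher at ZT19 in the 20 arrays, where 26.6%, 45.8% and 24.4% of all genes passed at those times. By direction, 13.8% of all genes were lower and 12.8% higher at ZT7, and 21.8% were lower and 23.9% higher at ZT13. In the 24 arrays 1 was lower at ZT7, 1 lower at ZT13, and 7 were higher and 0 lower at ZT19. Of all genes, 0.234% were lower at ZT7 and 0.334% at ZT13 there, and 44.1% were higher and 11.2% lower at ZT19. Nr1d1, which encodes the repressor REV-ERB alpha and has been reported to repress Fabp7 in mice, measured 9.97 in TSR and 10.78 in CON at ZT7 and 9.74 in TSR and 10.51 in CON at ZT13. Its difference was -0.81 at ZT7 (limma adjusted p = 1.74e-09), -0.77 at ZT13 (limma adjusted p = 2.23e-08) and 0.05 at ZT19 (limma adjusted p = 0.67). Fabp7 was lower in TSR mice at ZT7 and higher at ZT13, and the part of Nr1d1 in this was not tested. On average Dbp fell by 0.76 (SE 0.052, limma adjusted p = 1.47e-09), Bhlhe41 by 0.73 (SE 0.068, limma adjusted p = 5.85e-08) and Per2 by 0.51 (SE 0.057, limma adjusted p = 5.29e-07). Dbp and Per2 also passed in the 24 arrays (limma adjusted p = 0.0429 and 0.000388), and Bhlhe41 and Nr1d1 did not (limma adjusted p = 0.297 and 0.293).

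The genes with the most similar course were sought among 4398 genes whose group means spanned at least 0.5, by Pearson correlation over the 8 group means of the 20 arrays, which share arrays and normalization. For Fabp7 these were Txn1 (0.900), Pappa (0.894), Ndufc1 (0.884), Atp5mpl (0.836), Mcee (0.829) and Sdf2l1 (0.827). Txn1, the gene of thioredoxin, averaged 10.10 at TSR ZT1 and 10.68 at CON ZT1, its highest group. Its likeness to Fabp7 at ZT1 follows from the search, which used the ZT1 means that led to the choice of Fabp7. With 4398 genes searched over 8 means, high correlations can arise through the search alone, and none was tested. Among the other 7 members Fabp7 correlated at 0.399 with Slc1a2, its closest, and at -0.549 with Gjb6.

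The closest genes were Gab2 (0.967) and Carns1 (0.966) for Gfap, Tmem38b (0.982) and Zfp110 (0.980) for Aqp4, Crabp1 (0.908) and Rph3a (0.878) for Slc1a2, and Fam189a2 (0.891) and Cd24a (0.887) for Slc1a3. They were Stk39 (0.985) and Macir (0.984) for Gja1, Pcnp (0.974) and Atp6v1d (0.964) for Gjb6, and S1pr5 (0.982) and Tmem63a (0.967) for Aldh1l1. Among the members themselves, Aqp4 with Gja1 (0.848) and Gja1 with Gjb6 (0.787) had the highest correlations.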

How the data were processed

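RNA of 24 tissue samples was labelled with biotin and hybridised to Affymetrix arrays, per the labels. The deposited values are log2 probe-set signals made by the authors with Affymetrix Expression Console, per the submitters' processing notes, and the sources used here give neither its version nor its summarization. Arrays have no read depth, and 3 arrays per group limit the precision. Of 853344 deposited log2 values, 2640 (0.309%) with a displaced decimal point were restored, 84 were set to missing and 9 were missing as deposited. Of 35556 probe sets, 21789 had 1 symbol, 1621 several and 12146 none, and those with 1 symbol were used, the one with the highest mean for each gene. Genes with means under the 40th percentile (5.84) were removed, which left 11963. Conditions were taken from descriptions, times and replicate numbers from titles.

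limma 3.58.1 in R 4.3.3 fitted 8 group means with a trend in the moderation, to the 24 arrays and, as an alternative, to the 20 with an interquartile range of 2.5 or more. Tests were 2-sided, adjusted by Benjamini and Hochberg over all genes, and covered ZT7, ZT13 and ZT19, their average, the change among them and time of day within each condition. The fits were tested on simulated data. The decimal repair was tested on undamaged real rows of higher level with some decimal points displaced on purpose, so its handling of low values was not tested. Members and lists were chosen with earlier results of these data known. Beside the members, up to 4 genes of each list are named, those with the largest average change among those past the threshold in the 20 arrays, and the genes nearest to each member. Ttr, Alb and Foxj1 at single times, and the genes used to check the tissue, were chosen after their values were seen. Other settings covered filters, probe sets, normalization, moderation, array weights, blocks and leaving out arrays.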

Additional observations from a re-analysis of the deposited data

Results flagged for a closer look

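Gfap differed by -0.76 at ZT7, with every TSR array below every CON array, and by 1.08 at ZT19 in the 24 arrays, with every TSR array above every CON array. Its change among ZT7, ZT13 and ZT19 did not pass in the 24 arrays (limma adjusted p = 0.115) and passed in the 20 (limma adjusted p = 0.00795). Slc1a3 likewise lay apart in opposite directions, by -0.32 at ZT7 and 1.44 at ZT19 in the 24 arrays, and its change among times did not pass there (limma adjusted p = 0.115) and passed in the 20 (limma adjusted p = 0.0133). At ZT19 both values of the 24 arrays rest on a CON group with 2 narrow arrays, and in the 20 they were 0.33 and 0.12. Slc1a2 lay apart by -0.88 at ZT1 and by 0.10 at ZT7, and the difference between those was not tested.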

How the results depend on the processing

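Without the 4 narrow arrays the number of the 8 genes past the threshold was 3 in place of 0 at ZT7, 2 in place of 0 at ZT13, 1 in place of 6 at ZT19, 4 in place of 0 for the average, 4 in place of 0 for the change among times, 2 in place of 0 for time of day in TSR and 3 in place of 1 in CON. With array weights the counts were 3 at ZT7, 3 at ZT13, 7 for the average, 8 for the change among times, 2 in TSR and 8 in CON, but the weights gave the typical CON ZT19 array 0.018 and the narrow ones 0.41 and 0.689. A quantile normalization of the 20 arrays alone, chosen after seeing the data, gave 6, 5 and 2 at ZT7, ZT13 and ZT19, 5 for the average, 4 for the change among times, 3 in TSR and 3 in CON. Fitting only the arrays of the times compared gave 2 at ZT7, 0 at ZT19 and 7 in CON. Time of day in CON had 0 with no expression filter, with the filter at the 60th percentile, with quantile normalization of the 24 arrays again, without the trend and with the replicate block, and the second normalization gave 1 for the average. Leaving out 1 of the 24 arrays gave 0 to 0 at ZT7 and ZT13, 0 to 8 at ZT19, 0 to 1 for the average, 0 to 8 for the change among times (6 without TSR ZT1 replicate 3 and 8 without CON ZT19 replicate 1), 0 to 0 in TSR and 0 to 8 in CON (8 without TSR ZT1 replicate 3 or CON ZT19 replicate 1, and 7 without TSR ZT13 replicate 2). Leaving out 1 of the 20 gave 2 to 5 at ZT7, 2 to 4 at ZT13, 1 to 2 at ZT19, 3 to 5 for the average, 4 to 4 for the change among times, 1 to 3 in TSR and 3 to 3 in CON. Except at ZT7 and ZT13, these fits all kept the lone CON ZT19 array. In 12 pairs of equal replicate number, 5 correlated over 0.1 (-0.418 to 0.381). With 3 arrays per group, and narrow arrays in some groups, this cannot decide whether the numbers pair the samples. The replicate block changed no other count.

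Signs turned as follows, and the cause was not tested. Without the narrow arrays, Gja1, Gjb6 and Aldh1l1 were 0.193, 0.292 and 0.044 at ZT13, Fabp7 and Slc1a2 -0.158 and -0.033 at ZT19, and Fabp7 and Slc1a3 -0.027 and -0.114 on average. With the 20 arrays normalized alone, Slc1a2, Slc1a3, Gja1, Gjb6 and Aldh1l1 were 0.162, 0.023, 0.261, 0.282 and 0.013 at ZT13, Fabp7 and Aldh1l1 -0.222 and -0.083 at ZT19, and Fabp7, Slc1a3 and Aldh1l1 -0.058, -0.011 and -0.016 on average. With array weights, Gja1 and Gjb6 were 0.088 and 0.119 at ZT13 and Gfap 0.106 on average. With the 24 arrays normalized again, Fabp7 and Gjb6 were -0.118 and 0.208 at ZT13. Leaving out 1 of the 24 arrays gave -0.117 to 0.405 for Fabp7, -0.647 to 0.193 for Gja1, -0.253 to 0.292 for Gjb6 and -0.611 to 0.044 for Aldh1l1 at ZT13, and -0.035 to 0.139 for Fabp7 and -0.192 to 0.051 for Gfap on average.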
